A study of Homo sapiens with 8 samples.

Results

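MEL1 is a human embryonic stem cell (ESC) line. The comparison described here took MEL1 cells that had been exposed to TCDD at the stem cell stage and set the libraries of differentiation day 2 against those of the stem cell stage. Its members are the 4 libraries titled for TCDD, 2 at D1 and 2 at D2, of the 8 RNA sequencing libraries of the series. All genes of the count tables entered the fit. TCDD (2,3,7,8-tetrachlorodibenzodioxin), a dioxin and a ligand of the aryl hydrocarbon receptor (AHR), was given at 2 nM in DMSO, and the 4 control libraries received DMSO alone. D1 cells were taken just before differentiation. D2 cells had spent 2 days in a cardiac differentiation medium, RPMI with B27 lacking insulin, that carried 5 µM of the GSK3 inhibitor CHIR99021, with either TCDD or DMSO given beforehand. All 4 groups therefore share 1 cell line, and D1 and D2 differ at once in time, medium, inhibitor and any batch, which cannot be told apart. Whether TCDD stayed in the medium after D1 is not stated in the labels. Nothing there says that the 2 libraries of a group came from separate cultures, so p-values reflect how far these samples spread, a spread that may be technical.

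GSK3 marks beta-catenin for destruction in cells that receive no Wnt signal. Blocking GSK3 lets beta-catenin gather in the nucleus and act with TCF and LEF factors on Wnt target genes. In the embryo, Wnt, Nodal and FGF signals act together at the primitive streak, the site where epiblast cells leave the pluripotent state and become mesoderm or endoderm, and the same signals are used in culture to start cardiac differentiation. AHR is a transcription factor in the cytoplasm that enters the nucleus once it binds a ligand such as TCDD, pairs with ARNT and raises CYP1A1 and other genes of xenobiotic metabolism.

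The deposited tables held read counts for 27317 gene symbols, 4199 of them without a count in any library, and totals of 34873055 to 43770420 counts per library. Levels below are CPM, a gene's counts relative to its library's total after TMM scaling in edgeR, and values are given for libraries 1 and 2 in that order. After genes with low counts were removed, 17268 genes were tested. A gene was called where the adjusted p of edgeR's quasi-likelihood test was below 0.05, adjusted over all 17268 genes by the Benjamini-Hochberg method, and every adjusted p below is of that kind unless another tool is named. Changes are log2 fold changes of D2 minus D1 with their standard error (SE). The labelled cell type was checked against 6 ESC markers, whose summed level was 6163 to 6227 CPM at D1 and 4654 to 4655 CPM at D2. The lower sum came from PODXL and DPPA4, the 2 markers called lower, while the other 4 were called higher. The summed level of 6 primitive streak markers was 1.82 to 2.01 CPM at D1 and 473 to 544 CPM at D2, and in the DMSO libraries of D2 it was 787 to 809 CPM. In bulk libraries such as these, fewer cells of a type and less RNA per cell cannot be told apart. Because no source used here gives the strand setting or the treatment of shared reads, the counts of near-identical or overlapping genes are uncertain, such as LEFTY1 and LEFTY2, or TIPARP and its antisense gene.

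After TCDD, the 2 days of differentiation changed most genes tested, and changes of at least 2-fold were more often falls than rises. Of 17268 genes tested, 11267 were called (65.2%), 5707 of them higher at D2 (33.0%) and 5560 lower (32.2%). At least 2-fold changes comprised 661 rises (3.83%) and 1819 falls (10.5%). At 4 or more on the log2 scale the order turned, with 62 rises and 19 falls. The libraries of the 2 times did not overlap for 14050 genes (81.4%), so a lack of overlap is no sign of a particular gene here. The median change of all genes was -0.0024. Without a correction for composition the median was -0.11 and the calls were 4188 higher and 6994 lower, so that the share of calls that were rises was 37.5% in place of 50.7%. Small changes of gene groups below are therefore relative to that shift. Counts of called list members are to be read beside the shares of all genes, 33.0% higher and 32.2% lower.

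The primitive streak regulators held several of the largest rises of the comparison. Of 13 tested transcription factors of the streak list, 9 rose, 3 fell and 1 was not called, and their median change was 4.33, beside -0.0024 over all genes. The T gene, which encodes Brachyury, the T-box factor that defines nascent mesoderm, was at 0.0700 and 0.0275 CPM at D1 and at 45.2 and 52.0 CPM at D2, and the rise was called (adjusted p = 1.03e-17). It had 3 and 1 counts at D1 and 3795 counts in all at D2, a ratio of 958 (exact 95% interval 374 to 3516, for counting error only), which was 1757 without D1 library 1 and 691 without D1 library 2. EOMES, the T-box factor of mesendoderm, went from 0.210 and 0.0826 CPM to 101 and 111 CPM, on 9 and 3 counts at D1. Its ratio was 695 (counting interval 398 to 1346), and 1276 without D1 library 1. MIXL1, a homeobox factor of mesendoderm, went from 1.21 and 1.49 CPM to 119 and 137 CPM, which is 95.5-fold higher. All 3 genes were low at D1, and the step to D2 was far larger than the gap between the libraries of a time.

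EVX1, a homeobox factor of the posterior streak, had no count in either TCDD library at D1 and 5.13 and 8.12 CPM at D2. With 3 counts for the whole group taken as the floor, this is at least 172-fold higher. SP5, a zinc finger factor that Wnt signalling switches on directly, rose from 0.257 and 0.0275 CPM to 199 and 231 CPM. Its D1 libraries held 11 and 1 counts, and the ratio of 1411 (counting interval 807 to 2731) became 7766 without D1 library 1 and 833 without D1 library 2. GSC, a homeobox factor of the anterior streak and organiser, was at 0.257 and 0.193 CPM at D1 and 3.30 and 5.06 CPM at D2, a ratio of 18.1 (counting interval 11.3 to 30.9). FOXA2, a forkhead factor of the anterior streak and endoderm, rose from 0.117 and 0 CPM to 4.77 and 5.50 CPM, a ratio of 80.9 (counting interval 34.4 to 251) that fell to 43.8 without D1 library 2, the library that had no count. NKX1-2, a homeobox factor of the posterior epiblast, rose from 2.08 and 1.40 CPM to 31.7 and 39.5 CPM, 20.1-fold. In each of these genes both D2 libraries lay above both D1 libraries, and 81.4% of all genes tested were apart in either direction.

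The remaining members of the list changed less or fell. MESP1, the early regulator of cardiac mesoderm, was at 0.723 and 0.853 CPM at D1 and 1.35 and 1.29 CPM at D2, a rise of 0.76 ± 0.23. That call ended without library 1 of TCDD at D1 (adjusted p = 0.0656) and under DESeq2 (adjusted p = 0.0816). MESP2, its paralogue with a role in somite formation, fell from 2.26 and 1.98 CPM to 0.854 and 0.743 CPM, and TBX6, a T-box factor of paraxial mesoderm, fell from 7.30 and 7.65 CPM to 5.53 and 4.87 CPM. LHX1, a LIM homeobox factor of the streak and its derivatives, was at 0.606 and 0.716 CPM at D1 and 0.475 and 0.248 CPM at D2, a fall of 0.83 ± 0.34 (adjusted p = 0.0420). The LHX1 call ended without TCDD D1 library 1 (adjusted p = 0.0640), TCDD D1 library 2 (0.160) or TCDD D2 library 2 (0.301), and under DESeq2 (0.185). SNAI1, a repressor of epithelial genes, was at 9.14 and 9.69 CPM and 10.5 and 11.1 CPM and was not called (adjusted p = 0.0585).

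**Figure D1:**
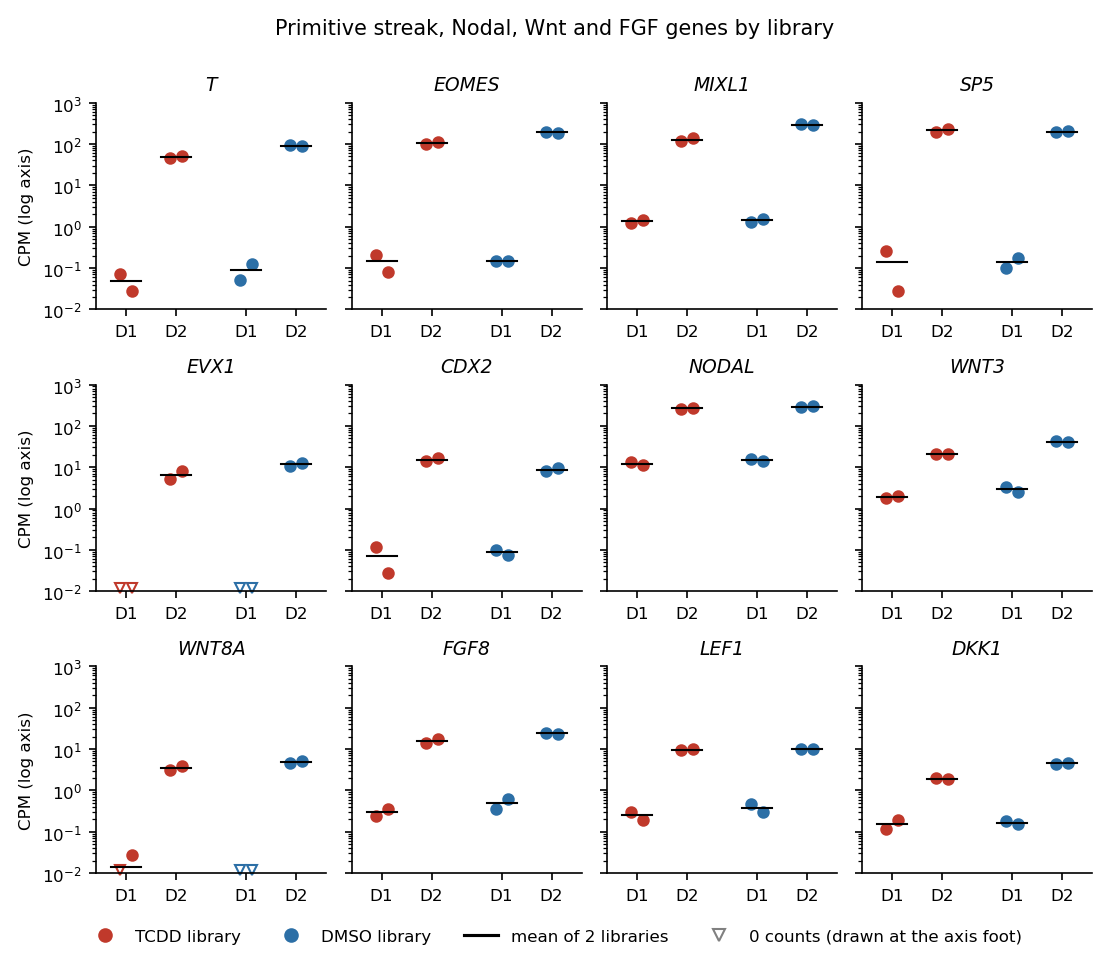
Levels in CPM (log axis) of 12 primitive streak, Nodal, Wnt and FGF genes in each TCDD and DMSO library at D1 and D2, with a bar at the mean of 2 libraries and open triangles for libraries without a count. Every gene is higher in both D2 libraries than in both D1 libraries of the same treatment, for example T at 0.0700 and 0.0275 against 45.2 and 52.0 CPM after TCDD. After TCDD the libraries of the 2 times were apart for 81.4% of all genes tested.

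With DMSO T, EOMES, EVX1 and MIXL1 rose as well, and MIXL1 was the one gene of the list, beside LHX1, whose change differed by the test. MIXL1 went from 1.32 and 1.58 CPM to 308 and 286 CPM with DMSO, and its change after TCDD was smaller by 1.10 ± 0.23 on the log2 scale (adjusted p = 0.0281). For MIXL1 the call ended without DMSO D1 1 and 2, DMSO D2 1 or TCDD D1 2 (adjusted p 0.0628 to 0.224). In the DMSO libraries T reached 92.7 and 88.3 CPM at D2, EOMES 196 and 186 CPM and EVX1 10.7 and 12.8 CPM. Both TCDD libraries of D2 lay below both DMSO libraries of D2 for these 3 genes. The difference between the 2 changes was not called for EOMES (-0.85 ± 0.58, adjusted p = 0.669), and for T the few counts at D1 left it wide (-0.12 ± 1.35). SP5 overlapped at D2, at 199 and 231 CPM after TCDD and 193 and 206 CPM with DMSO.

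The sequence just upstream of SP5, MIXL1, DKK1 and CDX2, which all rose, is shown because the TCF and LEF factors favour a known DNA word. Whether these factors regulate the 4 genes here was not tested. Promoters were the 250 bases before the annotated start in RefSeq (GRCh38.p14), and 12935 of the 17268 genes tested matched an entry, 534 of them through an older symbol that no current gene bears. The words CTTTGAA and CTTTGAT, on either strand, were searched and are in capitals, in the letters of the gene's own strand, so that a match on the other strand reads TTCAAAG or ATCAAAG. SP5 lies at chr2:170715087-170715336 on the plus strand, MIXL1 at chr1:226223414-226223663 on the plus strand, DKK1 at chr10:52314031-52314280 on the plus strand and CDX2 at chr13:27969316-27969565 on the minus strand.
SP5: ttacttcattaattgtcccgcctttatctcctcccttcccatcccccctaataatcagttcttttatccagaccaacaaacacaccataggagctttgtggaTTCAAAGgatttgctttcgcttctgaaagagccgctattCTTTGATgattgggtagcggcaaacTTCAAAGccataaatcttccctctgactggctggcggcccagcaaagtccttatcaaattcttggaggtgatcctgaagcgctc
MIXL1: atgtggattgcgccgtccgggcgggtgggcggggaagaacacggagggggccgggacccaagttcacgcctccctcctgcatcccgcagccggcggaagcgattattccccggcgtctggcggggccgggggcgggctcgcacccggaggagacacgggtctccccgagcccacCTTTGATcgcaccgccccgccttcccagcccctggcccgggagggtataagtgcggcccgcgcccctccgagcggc
DKK1: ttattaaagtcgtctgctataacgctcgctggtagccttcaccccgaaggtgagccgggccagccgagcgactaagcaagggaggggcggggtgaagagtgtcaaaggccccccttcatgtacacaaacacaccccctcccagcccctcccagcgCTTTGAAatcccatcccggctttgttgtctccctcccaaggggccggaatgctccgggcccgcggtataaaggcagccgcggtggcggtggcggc
CDX2: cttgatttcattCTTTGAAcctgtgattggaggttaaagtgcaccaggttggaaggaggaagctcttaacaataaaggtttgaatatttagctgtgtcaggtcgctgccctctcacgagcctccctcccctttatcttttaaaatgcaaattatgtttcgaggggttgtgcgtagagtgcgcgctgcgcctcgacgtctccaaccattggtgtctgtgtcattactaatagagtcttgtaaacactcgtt
The SP5 promoter held 3 matches and the others held 1 each. Either word was in 8.74% of the 469 matched promoters of genes that rose at least 2-fold, in 3.98% of the 1232 of genes that fell at least 2-fold, and in 3.75% of all 12935. The 4 promoters were chosen because they hold a match. Those of T, EOMES, EVX1, NODAL, WNT3, WNT8A, LEF1, TCF7, RNF43, TNFRSF19, GATA6, ZEB2 and GAD1, which all rose, held neither word in this window, and that of DNAH5, a cilia gene, held 2 matches. A match is a description of the letters and not evidence of binding.

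The caudal and HOX genes, which set posterior identity, were mostly too low to test, and most of the tested ones rose. Of 21 genes on the list, 14 were too low to test (at most 20 counts in any single library). Of the 7 tested, 5 rose and 2 were not called. CDX2, a caudal homeobox factor of the posterior embryo that trophoblast also uses, rose from 0.117 and 0.0275 CPM to 14.0 and 16.5 CPM and CDX1 from 0.0933 and 0.0275 CPM to 5.58 and 5.61 CPM. On 6 and 5 counts at D1 the ratios were 200.3 (counting interval 91.8 to 547) and 88.6 (37.7 to 274), and without D1 library 1 they were 551 and 203. HOXB1 rose 4.97-fold, from 0.327 and 0.468 CPM to 2.09 and 1.82 CPM. HOXB2 rose from 0.0933 and 0.165 CPM to 0.309 and 0.385 CPM, a call that ended without TCDD D1 library 1 (adjusted p = 0.124), without TCDD D2 library 2 (0.0755) and under DESeq2 (0.0874).

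NODAL and several of its secreted inhibitors rose. Of 21 tested members of the Nodal and Activin list, 13 rose, 6 fell and 2 were not called, with a median of 0.26. NODAL, the ligand that patterns the streak, was at 13.1 and 11.2 CPM at D1 and 252 and 274 CPM at D2, a rise of 4.43 ± 0.08 (adjusted p = 1.70e-18). GDF3, a related ligand, rose from 5.67 and 5.42 CPM to 15 and 17.1 CPM. LEFTY1 went from 2.22 and 2.17 CPM to 17.7 and 18.2 CPM, LEFTY2 from 3.41 and 3.83 CPM to 17.1 and 18.5 CPM and CER1, which also binds BMP and Wnt, from 0.606 and 0.495 CPM to 14.1 and 15 CPM. FST, the follistatin that traps Activin, rose 23.2-fold from 5.99 and 5.61 CPM to 135 and 135 CPM. Downstream, PMEPA1, a feedback inhibitor of SMAD signalling, rose 4.18-fold, SMAD7, an inhibitory SMAD, 1.41-fold and FOXH1, the factor that brings SMAD2 and SMAD3 to DNA, 1.62-fold. TDGF1, the NODAL coreceptor, fell from 607 and 733 CPM to 531 and 505 CPM. With DMSO, GDF3 went from 6.21 and 4.96 CPM to 29.0 and 28.0 CPM, and its change after TCDD was smaller by 0.82 ± 0.15 (adjusted p = 0.0110). For GDF3 the call ended without DMSO D1 2, DMSO D2 1 or TCDD D2 1 (adjusted p 0.0512 to 0.0757).

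Among the Wnt ligands 5 of 14 tested rose, 3 fell and 6 were not called, with a median of 0.00. WNT8A, a canonical ligand of the streak, had 1 count over both D1 libraries and 3.04 and 3.80 CPM at D2, a ratio of 268 (exact 95% counting interval 47.8 to 10643). WNT3, the ligand that the mouse streak needs to form, rose 11-fold from 1.84 and 1.98 CPM to 20.7 and 21.4 CPM. WNT10B rose 43.3-fold, from 0.583 and 0.358 CPM to 21.8 and 20 CPM. WNT5B, mostly a non-canonical ligand, rose from 4.31 and 3.05 CPM to 42.7 and 47.4 CPM, and WNT3A from 0.373 and 0.220 CPM to 1.02 and 2.06 CPM. WNT8B fell 2.91-fold, from 3.45 and 3.00 CPM to 1.07 and 1.16 CPM, and WNT4 fell 3.34-fold. Of the tested ligands 57.1% were called, beside 65.2% of all genes tested, where 33.0% were higher. The libraries of the 2 times were apart in each named ligand, as they were in 81.4% of all genes. WNT3A and WNT4 were chosen after their values were seen.

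Of 15 Wnt receptors and coreceptors, 9 rose, 4 fell and 2 were not called, with a median of 0.28. The receptor FZD10 rose from 1.42 and 1.43 CPM to 10.9 and 12.2 CPM, 8.07-fold, and ROR2, a receptor for non-canonical ligands, from 19.7 and 16.7 CPM to 50.7 and 61.1 CPM. FZD7, the frizzled receptor known for its high level in pluripotent cells, fell from 427 and 373 CPM to 261 and 265 CPM. With DMSO it fell further, from 454 and 396 CPM to 189.9 and 192 CPM, so the change after TCDD lay higher by 0.55 ± 0.09 (adjusted p = 0.00516). For FZD7 the call ended without DMSO D2 1 (adjusted p 0.0587).

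All 11 tested secreted Wnt antagonists were called, 6 higher and 5 lower. DKK1, which blocks the LRP coreceptors and is itself a Wnt target, rose from 0.117 and 0.193 CPM to 1.95 and 1.84 CPM, 12.3-fold. DKK4 had no count at D1 and 1.33 and 1.46 CPM at D2, at least 36.7-fold higher. APCDD1, a membrane inhibitor that Wnt induces, rose 11.1-fold. The frizzled-related proteins SFRP1 and SFRP2, which bind Wnt ligands outside the cell, moved the other way. SFRP1 fell from 466 and 434 CPM to 147 and 137 CPM, 3.17-fold, and SFRP2 from 1269 and 1125 CPM to 658 and 664 CPM. DKK3, a divergent member of its family, fell 2.02-fold.

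Inside the cell, 11 of 19 Wnt feedback genes rose, 7 fell and 1 was not called, and 9 of the rises were at least 2-fold. AXIN2, the scaffold of the destruction complex and a common reporter of Wnt activity, went from 49.5 and 47.9 CPM to 161 and 171 CPM, a rise of 1.77 ± 0.05 (adjusted p = 1.03e-14). LEF1, a nuclear partner of beta-catenin, rose 38.0-fold from 0.303 and 0.193 CPM to 9.66 and 9.74 CPM. TNFRSF19, a receptor that Wnt induces, rose 52.1-fold, RNF43, the ligase that removes frizzled receptors, 5.60-fold and NKD1, which binds Dishevelled, 5.43-fold. The 4 nuclear partners of beta-catenin divided, with LEF1 and TCF7 (2.79-fold) higher, and TCF7L1 (1.24-fold) and TCF7L2 (1.77-fold) lower. CCND1, which drives entry into the cell cycle, rose from 171 and 149 CPM to 306 and 339 CPM. With DMSO, AXIN2 went from 57.3 and 53.9 CPM to 139 and 151 CPM, and the change after TCDD was larger by 0.38 ± 0.08 (adjusted p = 0.0233). For AXIN2 the call ended without DMSO D1 1, DMSO D2 1 or TCDD D2 2 (adjusted p 0.140 to 0.184).

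Several FGF ligands rose, although the list of FGF ligands and receptors held slightly more falls than rises. Of its 15 tested genes 6 rose, 7 fell and 2 were not called, with a median of -0.16. Of 17 feedback genes of the ERK pathway 8 fell, 4 rose and 5 were not called, with a median of -0.29. Over all genes tested 33.0% were higher and 32.2% lower. FGF8, which guides cells out of the streak, rose 53.3-fold from 0.233 and 0.358 CPM to 14.1 and 17.3 CPM. FGF18 rose 17.2-fold from 0.536 and 0.605 CPM to 9.23 and 10.5 CPM, and FGF4 from 1.17 and 1.02 CPM to 4.82 and 4.37 CPM. FGF2, the ligand that sustains human ESCs, fell from 214 and 256 CPM to 151 and 150.5 CPM, and the receptor FGFR3 fell 1.65-fold. DUSP6, the phosphatase that switches ERK off and is itself induced by ERK, was at 123 and 101 CPM at D1 and 23.9 and 22.1 CPM at D2, a fall of 2.29 ± 0.14. The ERK-induced inhibitor SPRY4 fell from 212 and 154 CPM to 71.2 and 65.0 CPM and the ETS factor ETV5 from 87.9 and 83.8 CPM to 27.6 and 24.8 CPM. PHLDA1 went the other way, from 121 and 131 CPM to 323 and 301 CPM. The difference from DMSO was called for FGF4 (-1.09 ± 0.24), FGF13 (-0.38 ± 0.07), FGFR2 (0.38 ± 0.07) and SPRED1 (-0.30 ± 0.07). With the replicate number added to the model, the difference lost its call for SPRED1 and gained one for DUSP6 and SPRY4. For FGF4 the call ended without DMSO D1 1 and 2, DMSO D2 1 and 2, TCDD D1 1 and 2 or TCDD D2 1 and 2 (adjusted p 0.0628 to 0.214). For FGF13 the call ended without DMSO D1 1, DMSO D2 1 and 2 or TCDD D2 1 and 2 (adjusted p 0.0543 to 0.121). For FGFR2 the call ended without DMSO D1 2, DMSO D2 2 or TCDD D2 1 (adjusted p 0.0589 to 0.119). For SPRED1 the call ended without DMSO D1 1 and 2, DMSO D2 1 and 2, TCDD D1 2 or TCDD D2 1 and 2 (adjusted p 0.104 to 0.276), and it ended with the scaling factors of the RLE method (0.0582).

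Among BMP and Notch genes rises and falls were close in number. Of 18 BMP genes 5 rose, 5 fell and 8 were not called, and of 14 Notch genes 4 rose, 3 fell and 7 were not called, beside 65.2% of all genes called. Without composition scaling the Notch counts were 2 and 6. BMP4 was at 9.10 and 9.47 CPM at D1 and 9.78 and 11.7 CPM at D2 and was not called (adjusted p = 0.0610), although it was without TCDD D2 library 1 (adjusted p = 0.00938). ID2, a target of BMP signalling that blocks helix-loop-helix factors, rose 8.87-fold from 5.04 and 4.62 CPM to 40.8 and 45.3 CPM, and ID1 from 24.6 and 24.7 CPM to 42.1 and 45.5 CPM. ID3, in the same family, was at 87.9 and 71.2 CPM and 80.1 and 88.0 CPM and was not called, but was without TCDD D1 library 1 (adjusted p = 0.0318). BMP6 fell 3.64-fold. LFNG, the glycosyltransferase that modifies Notch, fell from 27.5 and 24.9 CPM to 6.50 and 7.59 CPM, and the ligand DLL3 from 21.2 and 17.6 CPM to 7.03 and 7.70 CPM. The target genes split, with HES1 lower (-0.45 ± 0.07) and HEY1 higher (1.47 ± 0.22).

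Some early cardiac, lateral mesoderm and endoderm regulators rose by D2, and most tested structural genes of heart muscle fell. Of 25 cardiac and lateral mesoderm genes, 16 were tested, of which 6 rose, 2 fell (5 without composition scaling) and 8 were not called. Of those tested 50% were called, beside 65.2% of all genes tested, where 33.0% were higher and 32.2% lower. Of 15 definitive endoderm genes 3 were too low to test, among them SOX17. Of the 12 tested 8 rose, 2 fell and 2 were not called, with a median of 1.70. GATA4, a zinc finger factor of heart and endoderm that is on both lists, rose from 0.327 and 0.275 CPM to 6.41 and 8.39 CPM, 24.1-fold. TBX3, a T-box factor, rose 29.8-fold, from 0.0933 and 0.0826 CPM to 2.80 and 2.64 CPM. HAS2, which makes hyaluronan, rose from 0.910 and 0.578 CPM to 9.18 and 10.8 CPM, while PDGFRA, a receptor of migrating mesoderm, fell from 3.69 and 3.39 CPM to 1.38 and 2.04 CPM. GATA6, a partner of GATA4, stayed low at 0.0700 and 0.110 CPM and 0.285 and 0.385 CPM, and its call ended without TCDD D1 library 1 (adjusted p = 0.0581). HHEX, a homeobox factor of anterior endoderm, rose 11.9-fold, and CXCR4, a chemokine receptor of endoderm, 4.88-fold. SHISA2 went the other way, with the largest fall of the endoderm list, a ratio of 7.65 (counting interval 6.45 to 9.13).

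Of 17 sarcomere and hormone genes of cardiomyocytes, 9 were tested, of which 6 fell, 1 rose (2 without TCDD D1 library 2) and 2 were not called. TNNT2, cardiac troponin T, fell from 15.4 and 14.4 CPM to 3.47 and 3.93 CPM, and TNNI3, cardiac troponin I, from 34.6 and 34.7 CPM to 17.2 and 18.0 CPM. RYR2, the calcium release channel, was the one that rose, from 10.3 and 7.27 CPM to 16.5 and 16.5 CPM. The 10 tested paraxial mesoderm genes gave 3 rises, 4 falls and 3 without a call. Among them CYP26A1, which breaks down retinoic acid, was at 6.79 and 6.69 CPM at D1 and 6.79 and 6.99 CPM at D2 after TCDD, and rose from 4.79 and 4.50 CPM to 9.75 and 8.93 CPM with DMSO. Its 2 changes differed by -0.97 ± 0.14 (adjusted p = 0.00204), and the call held in all 8 fits that each left out a library.

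The core pluripotency factors were still present at D2, while many other pluripotency genes fell. Of 32 tested genes of the list, 12 rose, 17 fell and 3 were not called, with a median of -0.51. POU5F1, which encodes OCT4, was at 447 and 452 CPM at D1 and 491 and 540.1 CPM at D2, a rise of 0.20 ± 0.05 (adjusted p = 0.00142). That call ended without TCDD D2 library 2 (adjusted p = 0.0614) and without composition scaling (0.103). NANOG, a homeobox factor of the pluripotent epiblast, rose from 15.1 and 15 CPM to 22.9 and 22.9 CPM, 1.52-fold. SOX2, the partner of OCT4 that neural cells keep, rose from 292 and 309 CPM to 350.4 and 372 CPM. All D2 libraries of these 3 genes lay above those of D1, and 81.4% of all genes tested were apart in either direction.

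Other members that rose were KLF5, a zinc finger factor, from 3.34 and 3.91 CPM to 16.3 and 18.3 CPM, and ZIC2, from 88.1 and 86.7 CPM to 177 and 179 CPM. KLF4, a reprogramming factor, rose 1.97-fold. FOXD3, a forkhead factor of ESCs and neural crest, showed the largest fall of the list, from 20.4 and 16.9 CPM to 1.40 and 1.79 CPM, 11.8-fold. DNMT3B, the DNA methyltransferase of the early epiblast, fell from 1892 and 1709.6 CPM to 1169 and 1249 CPM. PODXL, a sialomucin that carries ESC surface antigens, fell 2.43-fold, TERF1, a telomere-binding protein, 2.41-fold, DPPA2 2.52-fold and UTF1, a chromatin protein, 3.17-fold. Both libraries of D2 lay below both of D1 in each of these falls, where 81.4% of all genes tested were apart in either direction.

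With DMSO, 5 genes of the pluripotency list rose and 18 fell, and the change differed between treatments for 7 genes, 6 of them upward with TCDD. SOX2 fell with DMSO, from 323 and 347 CPM to 233 and 246 CPM, so that its changes were opposite and differed by 0.75 ± 0.07 (adjusted p = 1.58e-05). PRDM14, a repressor that guards pluripotency, fell from 44.4 and 41.4 CPM to 26.0 and 27.6 CPM after TCDD and from 52.0 and 52.1 CPM to 20.5 and 19.8 CPM with DMSO, a difference of 0.69 ± 0.08 (adjusted p = 0.000405). GAL, the neuropeptide galanin that ESCs express, was the downward one. It fell from 113 and 106 CPM to 72.6 and 73.9 CPM after TCDD and rose from 84.7 and 83.5 CPM to 103 and 97.2 CPM with DMSO, a difference of -0.83 ± 0.07 (adjusted p = 2.04e-06). For SOX2, PRDM14 and GAL the call held in all 8 fits that each left out a library. CD24 (0.36 ± 0.06), TERF1 (0.34 ± 0.07) and PODXL (0.31 ± 0.06) also differed upward. For CD24 the call ended without DMSO D2 1 and 2 or TCDD D2 1 (adjusted p 0.0593 to 0.0904). For TERF1 the call ended without DMSO D1 1 and 2, DMSO D2 1 and 2 or TCDD D2 1 and 2 (adjusted p 0.0520 to 0.210). For PODXL the call ended without DMSO D1 2, DMSO D2 1 and 2 or TCDD D2 1 (adjusted p 0.0688 to 0.170).

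**Figure D2:**
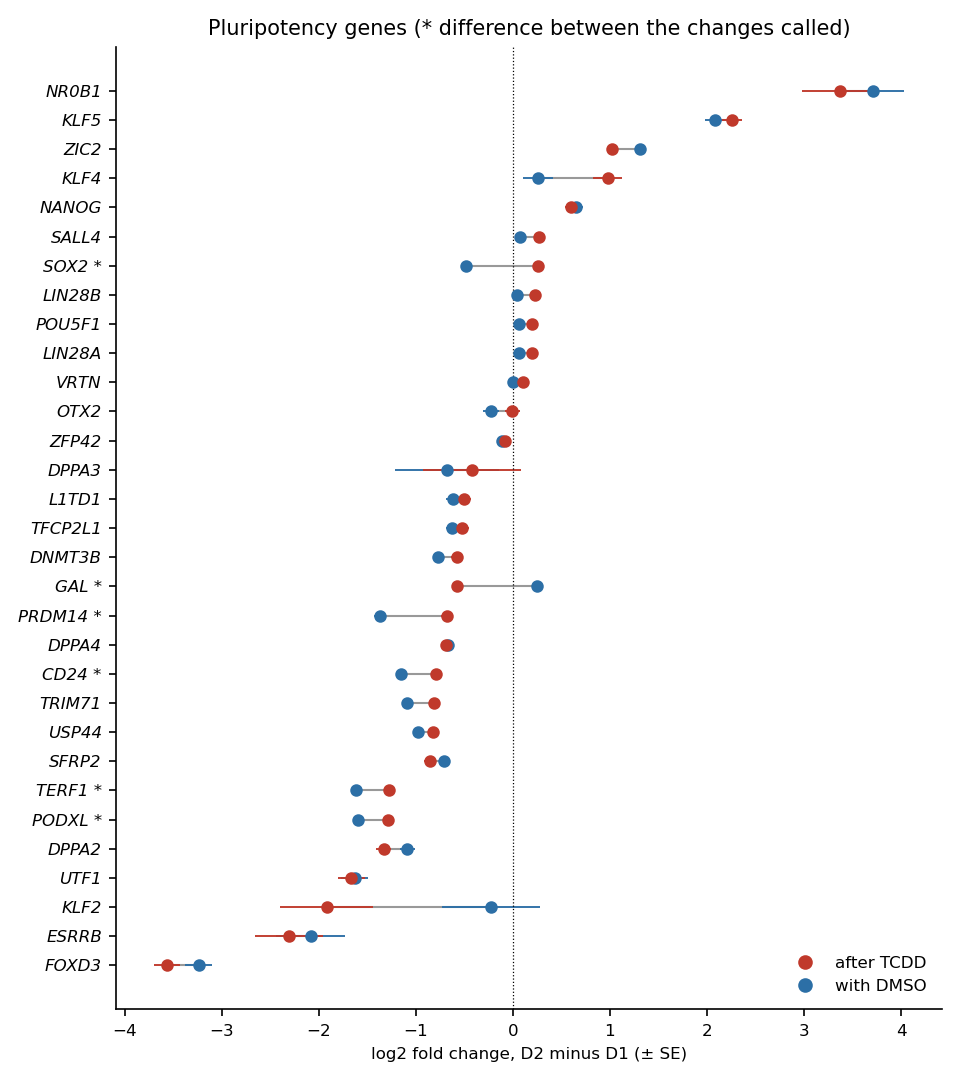
Log2 fold change of D2 minus D1 (± SE) for 31 of the 32 tested pluripotency genes, after TCDD in red and with DMSO in blue, each from 2 libraries a time; a star marks genes whose 2 changes differed by the test. Most genes lie left of 0 for both treatments, and SOX2 (0.26 ± 0.05 after TCDD, -0.48 ± 0.05 with DMSO) and GAL (-0.58 ± 0.05 and 0.25 ± 0.05) lie on opposite sides.

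Many genes of other early fates fell. Of 21 tested neuroectoderm genes 11 fell, 6 rose and 4 were not called. SIX6, an eye field factor, fell from 5.27 and 3.39 CPM to 0.688 and 0.330 CPM, a ratio of 8.43 (13.3 without D2 library 1), and NPTX1, a secreted pentraxin, fell 11.8-fold from 28.4 and 50.7 CPM to 3.56 and 3.08 CPM, with its D1 libraries themselves apart. GBX2, a homeobox factor that Wnt can induce, rose from 9.12 and 6.44 CPM to 48.0 and 52.6 CPM. Of 8 tested neural crest genes 6 fell and 1 rose, among them NGFR, the low-affinity neurotrophin receptor, which fell 11.4-fold from 45.6 and 36.6 CPM to 3.99 and 3.16 CPM, and SOX9, from 7.70 and 8.31 CPM to 3.13 and 2.64 CPM. Of 8 tested trophoblast and amnion genes 6 fell, 1 rose (2 without TCDD D2 library 1) and 1 was not called. GABRP, a receptor subunit used as an amnion marker, fell 11.4-fold and KRT7, a simple-epithelium keratin, 7.62-fold, while the one that rose was CDX2. Summed trophoblast or amnion markers went from 34.4 to 39.4 CPM at D1 to 18.0 to 20 CPM at D2, summed neural crest markers from 5.34 to 6.14 CPM to 2.75 to 2.97 CPM, and summed blood or endothelium markers from 1.05 to 1.21 CPM to 1.71 to 2.83 CPM. CGA and TFAP2B had no count in any TCDD library. RUNX1, a blood factor, rose from 0.770 and 0.716 CPM to 1.61 and 2.64 CPM, and TIE1, an endothelial receptor, fell 1.98-fold.

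Cell adhesion genes showed E-cadherin and N-cadherin rising side by side. CDH1, the E-cadherin of epithelia, went from 398 and 376 CPM at D1 to 659 and 647 CPM at D2, a rise of 0.76 ± 0.04, and CDH2, the N-cadherin of mesoderm and neural tissue, from 23.5 and 24.1 CPM to 67.2 and 75.8 CPM, a rise of 1.59 ± 0.06. Of 20 tested cadherin and epithelial to mesenchymal transition genes 7 rose, 3 fell (6 without composition scaling) and 10 were not called. The share called was 50%, beside 65.2% of all genes tested, where 33.0% were higher. ZEB2, a repressor of epithelial genes, rose from 0.163 and 0.0826 CPM to 7.52 and 8.47 CPM, a ratio of 63.1 (96.5 without D1 library 1), and the mesenchymal filament VIM rose from 56.1 and 56.5 CPM to 91.5 and 93.4 CPM. EPCAM, an epithelial adhesion protein, was at 467 and 492 CPM and 482 and 469 CPM and was not called. It was called lower without composition scaling (adjusted p = 0.0242). Of 14 keratins and claudins 9 fell and 3 rose. The tight junction gene CLDN4 fell 3.13-fold from 52.8 and 48.2 CPM to 15.5 and 16.8 CPM, and CLDN7 rose from 102 and 95.7 CPM to 137 and 142 CPM. Of 31 collagens, laminins and integrins 18 fell and 6 rose. COL6A1 and COL6A2, chains of collagen VI, rose 2.19-fold and 2.72-fold, and FN1, fibronectin, rose from 175 and 147 CPM to 365 and 367 CPM. COL1A1, a chain of collagen I, fell from 384 and 364 CPM to 197 and 197 CPM.

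Several AHR target genes stood high after TCDD at D1 and were lower at D2. Of 16 tested genes of the AHR list 10 fell, 1 rose (2 without TCDD D1 library 2) and 5 were not called, with a median of -0.30. With DMSO 5 rose and 5 fell. The change differed between treatments for 5 of the 16, all downward, beside 0.278% of all genes in that direction. Because the list was chosen with earlier results of these data known, this is a description and not a test of the list. CYP1A1, the cytochrome P450 that is the standard readout of AHR activity, was at 101 and 77.7 CPM at D1 and 2.56 and 1.82 CPM at D2, a fall of 5.34 ± 0.14 (adjusted p = 8.38e-16), 40.4-fold. In DMSO libraries it was at 0.760 and 0.813 CPM at D1 and 0.464 and 0.292 CPM at D2. The TCDD libraries of D2 thus lay far below those of D1 and still above every DMSO library.

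LRAT, which esterifies retinol for storage, was at 629.7 and 631 CPM at D1 and 226 and 209 CPM at D2 after TCDD, against 24.4 and 21.9 CPM and 39.7 and 33.8 CPM with DMSO. It fell by 1.53 ± 0.06 after TCDD and rose by 0.66 ± 0.07 with DMSO, a difference of -2.20 ± 0.10 (adjusted p = 1.81e-10). TIPARP, an ADP-ribosylase that AHR induces and that limits AHR, fell from 61.9 and 65.5 CPM to 33.3 and 32.6 CPM after TCDD and rose from 6.01 and 5.77 CPM to 8.30 and 9.49 CPM with DMSO. CYP1B1, a further P450 of the pathway, fell from 47.4 and 47.1 CPM to 35.9 and 36.8 CPM after TCDD and rose from 8.01 and 7.83 CPM to 15.9 and 16.4 CPM with DMSO. In these 3 genes both TCDD libraries stayed above both DMSO libraries at each time, and the gap between treatments was narrower at D2.

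ABCG2, an efflux transporter, fell 2.00-fold from 18.8 and 17.0 CPM to 9.11 and 8.86 CPM after TCDD, and was at 11.6 and 10.4 CPM and 10.3 and 10.8 CPM with DMSO, where it was not called. Its D2 levels after TCDD were slightly under those with DMSO. AHRR, the repressor of AHR, fell from 3.36 and 3.72 CPM to 1.26 and 1.43 CPM, while its difference from DMSO was not called (-1.01 ± 0.27, adjusted p = 0.106). The AHRR difference was called with no filter beyond 1 count (adjusted p = 0.0173). It was also called with the replicate numbers crossed, a setting added after the data were seen. CYP1A2, the neighbour of CYP1A1, fell from 1.19 and 0.716 CPM to 0.119 and 0.0275 CPM, with 6 counts left at D2 and a ratio of 12.7 (counting interval 5.58 to 35.7), or 35.3 without D2 library 1. The differences held in all 8 fits that each left out a library for LRAT, TIPARP, CYP1B1 and ABCG2. For CYP1A1 the call ended without DMSO D2 1 (adjusted p 0.0858). AHR itself was at 11.8 and 13.6 CPM and 12.2 and 12.1 CPM and its partner ARNT at 71.8 and 68.7 CPM and 73.6 and 70.8 CPM, and neither was called. SLC7A5, an amino acid transporter, was the one that rose, from 175 and 164 CPM to 726 and 892 CPM after TCDD and from 137 and 114 CPM to 476 and 553 CPM with DMSO.

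**Figure D3:**
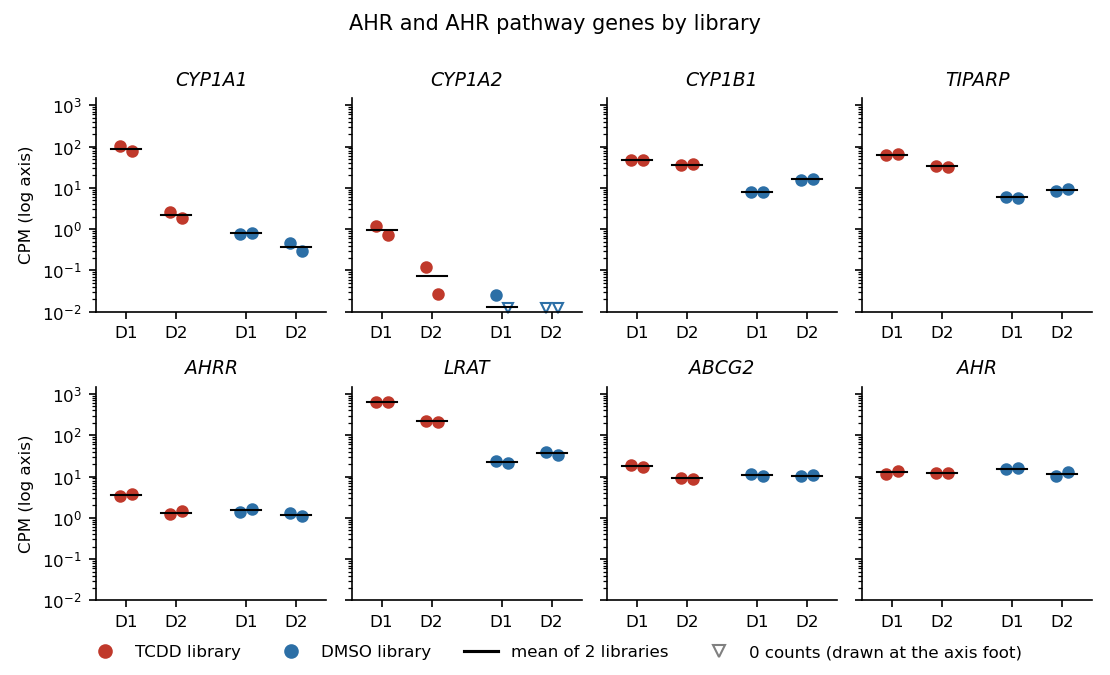
Levels in CPM (log axis) of AHR and 7 genes of its pathway in each TCDD and DMSO library at D1 and D2, with a bar at the mean of 2 libraries and open triangles for libraries without a count. CYP1A1 falls from 101 and 77.7 to 2.56 and 1.82 CPM after TCDD, CYP1B1, TIPARP and LRAT fall after TCDD and rise with DMSO, and AHR is not called after TCDD.

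The promoters of CYP1A1 and TIPARP are shown with the core word of the xenobiotic response element, GCGTG on either strand, in capitals, so that a match on the other strand reads CACGC. CYP1A1 lies at chr15:74725529-74725778 on the minus strand and TIPARP at chr3:156674340-156674589 on the plus strand, both from RefSeq on GRCh38.p14.
CYP1A1: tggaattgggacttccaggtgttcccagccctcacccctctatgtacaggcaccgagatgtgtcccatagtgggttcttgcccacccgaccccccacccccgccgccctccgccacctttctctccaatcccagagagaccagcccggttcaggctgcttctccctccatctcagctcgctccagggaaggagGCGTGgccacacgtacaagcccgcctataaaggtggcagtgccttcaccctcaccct
TIPARP: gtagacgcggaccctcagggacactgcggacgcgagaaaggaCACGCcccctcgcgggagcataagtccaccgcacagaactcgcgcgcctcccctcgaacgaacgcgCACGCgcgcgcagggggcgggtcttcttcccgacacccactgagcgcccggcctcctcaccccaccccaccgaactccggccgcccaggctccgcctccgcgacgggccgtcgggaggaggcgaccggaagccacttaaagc
This word is common and does not mark out the AHR genes. The LRAT promoter held 0 matches and that of AHRR held 1, while those of T, ID1 and ZEB2, which rose, held 2 each. A match is not evidence of binding. It was in 43.7% of all 12935 promoters, in 39.9% of those of genes that rose at least 2-fold and in 34.7% of those of genes that fell at least 2-fold.

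Of 16 tested retinoid genes, 7 rose, 5 fell and 4 were not called. STRA6, the receptor that takes up retinol, rose 2.13-fold, from 22.4 and 19.3 CPM to 45.2 and 43.9 CPM. DHRS3, which turns retinal back to retinol, fell 2.33-fold from 32.7 and 32.3 CPM to 13.8 and 14.1 CPM, and the receptor RARG fell 1.68-fold. In this list the difference from DMSO was called for LRAT and CYP26A1.

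Most glycolysis and hypoxia genes rose. Of 34 tested, 25 rose, 5 fell and 4 were not called, with a median of 0.42. PDK1, a kinase of pyruvate dehydrogenase, showed the largest rise, 6.28-fold from 103 and 91.2 CPM to 624 and 594 CPM. PFKFB3, which stimulates glycolysis, rose from 33.0 and 30.8 CPM to 90.7 and 98.4 CPM, LDHA, lactate dehydrogenase, from 867 and 827 CPM to 1623 and 1568 CPM and SLC16A3, a lactate exporter, from 68.3 and 54.3 CPM to 167 and 180.2 CPM. HK1 and HK2, which start glycolysis, moved apart, with HK1 falling 1.58-fold and HK2 rising 1.86-fold. NDRG1, a stress gene that hypoxia induces, fell from 16.6 and 15.3 CPM to 3.82 and 4.13 CPM. The glucose transporter SLC2A1 was at 772 and 596 CPM at D1 and 599.8 and 619 CPM at D2, with its D1 libraries apart, and was not called (adjusted p = 0.0933). It was called lower without TCDD D1 library 2 (adjusted p = 0.000272). By the test, 3 genes rose less than with DMSO, PDK1 (-0.37 ± 0.08), BNIP3, a mitophagy receptor (-0.36 ± 0.07), and P4HA1, a collagen hydroxylase (-0.33 ± 0.07). For PDK1 the call ended without DMSO D1 2, DMSO D2 1 and 2, TCDD D1 1 or TCDD D2 1 and 2 (adjusted p 0.0612 to 0.184). For BNIP3 the call ended without DMSO D1 1, DMSO D2 1 and 2 or TCDD D2 2 (adjusted p 0.0858 to 0.160). For P4HA1 the call ended without DMSO D1 1 and 2, DMSO D2 1 and 2 or TCDD D2 2 (adjusted p 0.0924 to 0.194). The P4HA1 rise after TCDD itself was lost without composition scaling (log2 change 0.0080, adjusted p = 0.895). It also ended without TCDD D1 library 2 (adjusted p = 0.145) or TCDD D2 library 1 (0.494), with the TCDD libraries alone (0.117) and under DESeq2 (0.0648).

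Most ribosomal protein, respiratory chain and DNA replication genes were called higher, by small amounts and relative to the scaling, and most cholesterol synthesis genes were called lower. Of 83 ribosomal protein genes 69 rose, 3 fell and 11 were not called, with a median of 0.22, and of 82 respiratory chain genes 55 rose, 4 fell and 23 were not called, with a median of 0.19. Without composition scaling the ribosomal counts were 42 and 5 and the respiratory counts 34 and 11. RPS6 went from 1640.4 and 1684 CPM to 2256 and 2176 CPM, and the ATP synthase subunit ATP5F1 from 117 and 115 CPM to 183 and 182 CPM. Of 30 replication genes 21 rose and 2 fell (1 under DESeq2, and fewer in some fits that left out a TCDD library). Among the rises, POLA1, the catalytic subunit of DNA polymerase alpha, went from 65.3 and 66.1 CPM to 119.9 and 123 CPM. The helicase subunit MCM4 went from 528 and 523 CPM to 818 and 871 CPM. Of 26 mitosis genes 7 rose (3 without composition scaling) and 10 fell, with CENPE, a kinetochore motor, at 140.2 and 144 CPM and 264 and 269 CPM and CDK1, the mitotic kinase, at 219 and 253 CPM and 188 and 165 CPM. Of 24 cholesterol synthesis genes 19 fell and 2 rose (1 without TCDD D1 library 2). FDFT1, squalene synthase, fell from 412 and 382 CPM to 189 and 173 CPM and HMGCS1, at the start of the pathway, 2.02-fold.

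The lists for amino acid stress and unfolded proteins, polycomb, DNA methylation and cell death held rises and falls in similar numbers. Of 24 amino acid stress and unfolded protein genes 10 rose and 7 fell. SLC3A2, the partner of SLC7A5, rose 2.01-fold, the chaperone HSPA5 1.69-fold and DDIT4, an inhibitor of mTOR, 2.24-fold, while SLC7A3, a transporter of cationic amino acids, fell 3.20-fold from 208 and 207 CPM to 66.7 and 63.3 CPM. Of 23 polycomb genes 7 rose (4 without composition scaling) and 8 fell. EZH2, the methyltransferase of the complex, rose from 22.8 and 23.0 CPM to 48.9 and 48.9 CPM, and its cofactor JARID2 fell from 655 and 552 CPM to 286 and 294 CPM. Among 9 DNA methylation genes 5 rose and 3 fell, with DNMT1, the maintenance enzyme, at 246 and 239.5 CPM and 347 and 369.6 CPM and DNMT3A, a de novo enzyme, at 163 and 151 CPM and 112 and 114 CPM. Of 21 p53 targets and BCL2 family genes 7 rose and 8 fell, among them the death-promoting BCL2L11, from 43.9 and 49.6 CPM to 93.1 and 90.2 CPM, and BMF, from 62.8 and 55.5 CPM to 23.7 and 23.7 CPM. Of 21 neuropeptides and receptor ligands 12 fell and 6 rose, and APELA, a ligand of the apelin receptor that ESCs secrete, fell from 140.1 and 191 CPM to 48.4 and 48.7 CPM. Of 10 reference transcripts 4 rose and 3 fell, with ACTB, beta-actin, at 3428 and 3353 CPM and 2632 and 2691 CPM, a change of -0.35 ± 0.04.

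**Figure D4:**
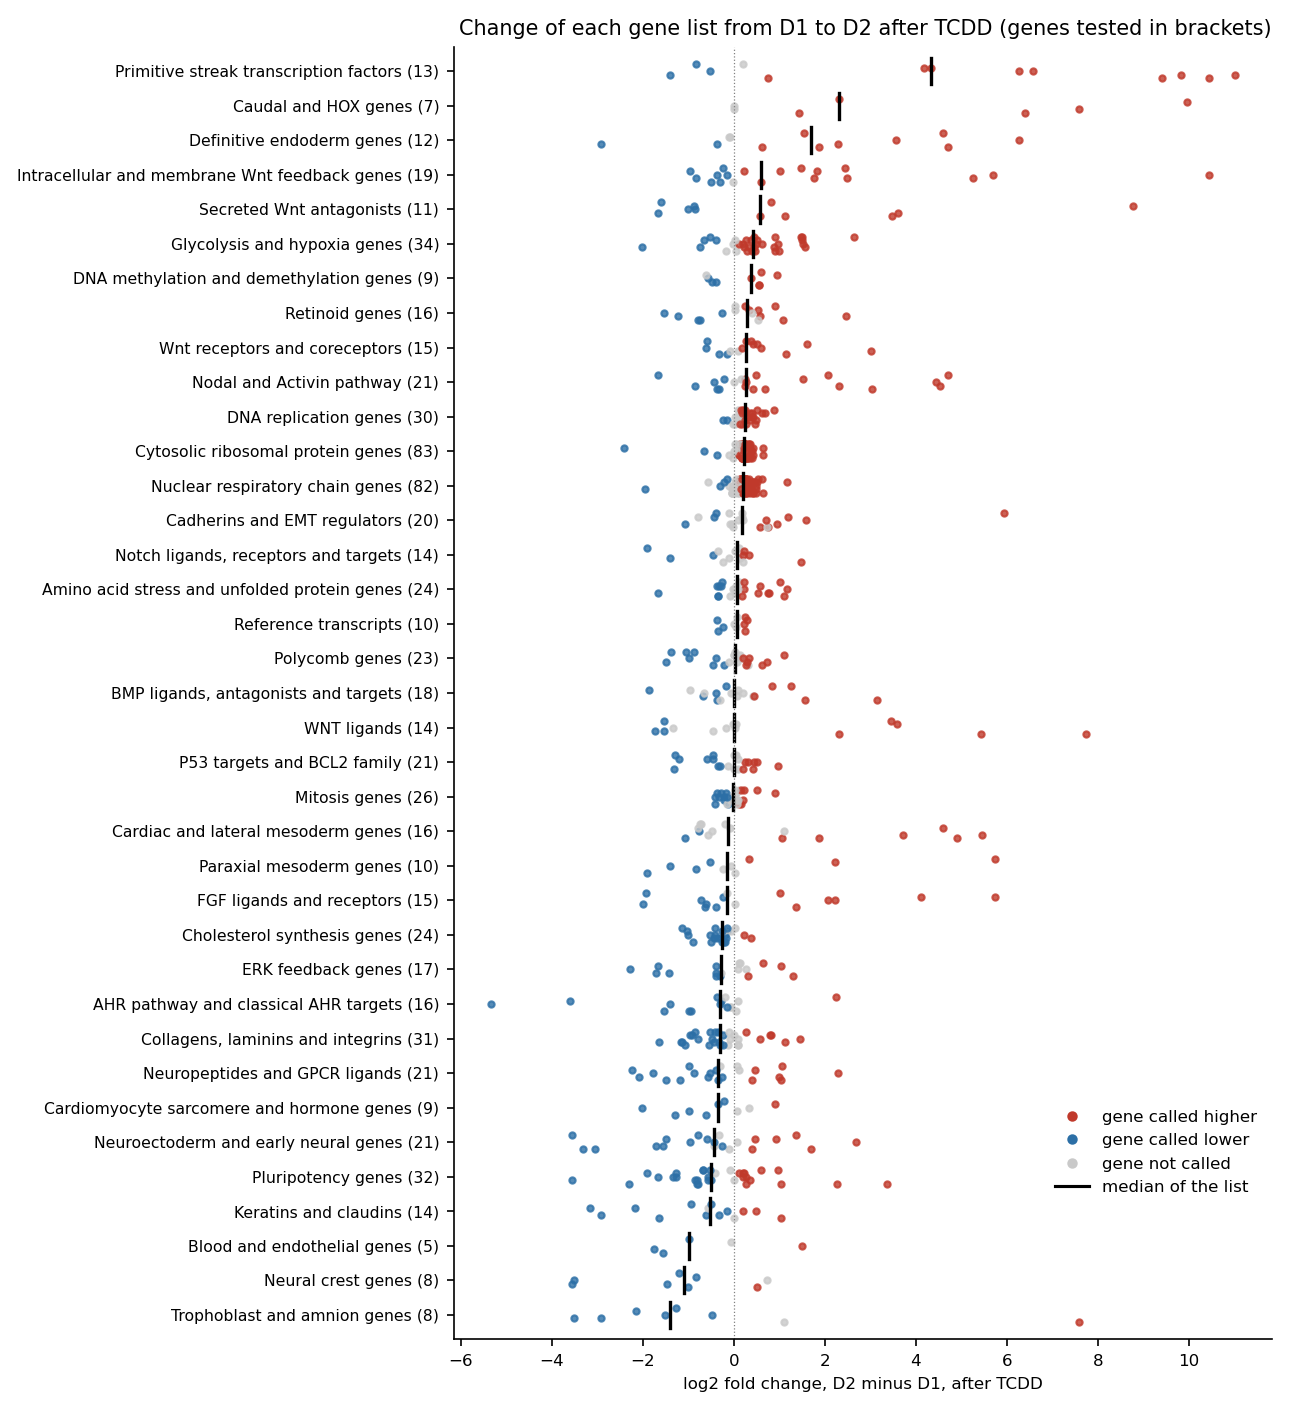
Log2 fold change of D2 minus D1 after TCDD for every tested gene of 37 gene lists, 1 row a list with its number of tested genes in brackets, coloured by call, with a bar at the list's median; lists share some genes. The streak list lies highest with a median of 4.33, the trophoblast and amnion list lowest at -1.39, and the reference transcripts lie at 0.06.

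Among called genes outside the lists with a mean of at least 1 CPM over the 4 TCDD libraries, GAD1, which makes the transmitter GABA, rose from 1.28 and 0.936 CPM at D1 to 122 and 126 CPM at D2, 110.2-fold. TLE6, a corepressor of the Groucho family, fell 16.1-fold from 5.95 and 6.44 CPM to 0.403 and 0.358 CPM, and RUNX2, a bone factor, 12.3-fold from 1.73 and 2.15 CPM to 0.142 and 0.165 CPM. SPTSSB, a regulatory subunit of the enzyme that starts sphingolipid synthesis, fell 10.8-fold from 30.6 and 32.1 CPM to 2.97 and 2.83 CPM. SGMS2, a sphingomyelin synthase, fell 9.11-fold, LTB, the cytokine lymphotoxin beta, 9.37-fold and NEURL1, a ubiquitin ligase, 9.72-fold (a ratio of 17.3 without TCDD D2 library 1). ADGRD1, KLHDC8A, TMEM130 and AZU1 fell 12.9-fold, 11.7-fold, 9.47-fold and 9.21-fold. At D2 AADACL3 and CHRND, a subunit of the muscle acetylcholine receptor, were down to 2 and 3 counts over both libraries, ratios of 51.0 (95% counting interval 13.8 to 427) and 27.7 (9.17 to 137). The libraries of D1 and D2 did not overlap in any gene of this paragraph, which adds no support. The naming rule required it, and AADACL3 and CHRND were chosen after their values were seen.

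Differentiation after TCDD was close to differentiation with DMSO when all genes were set side by side. The 2 changes come from separate libraries, and across the 17268 genes, which are not independent replicates, they had a Pearson r of 0.921 and a slope of TCDD on DMSO of 0.937. With DMSO 10913 genes were called (63.2%), 5617 higher (32.5%) and 5296 lower (30.7%), and 1648 of the latter (9.54%) fell at least 2-fold. The calls shared in direction numbered 9473, which is 84.1% of the TCDD calls and 86.8% of the DMSO calls. Called with TCDD alone were 1764 genes and with DMSO alone 1410, which does not show that these changes differ. The test of the difference itself called 133 genes (0.770%), 85 with a TCDD change above the DMSO change (0.492%) and 48 below it (0.278%), of which 5 (0.0290%) and 10 (0.0579%) differed at least 2-fold. At an unadjusted p below 0.05 there were 1810 genes. The number of calls moved with the library left out, from 31 without DMSO D2 library 1 to 275 without TCDD D1 library 1. Without DMSO D2 library 2 it was 41, without TCDD D2 library 2 it was 42, without DMSO D1 library 1 it was 57, without TCDD D2 library 1 it was 77 and without DMSO D1 library 2 it was 82.

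In 33 of the 85 upward differences the gene fell with both treatments and fell less after TCDD, and in 28 it rose with both and rose more. Of the 48 downward differences, 13 rose with both, 9 fell with both and 13 fell after TCDD and rose with DMSO. PCDH18, a protocadherin, rose from 46.5 and 50.6 CPM to 108 and 111 CPM after TCDD and was at 50 and 51.9 CPM and 51.2 and 57.5 CPM with DMSO, a difference of 1.08 ± 0.08 (adjusted p = 6.69e-07), and the call held in all 8 fits that each left out a library. NTN1, the axon guidance cue netrin, rose from 8.82 and 6.66 CPM to 36.9 and 41.7 CPM after TCDD and from 10.1 and 9.78 CPM to 28.6 and 31.3 CPM with DMSO, a difference of 0.74 ± 0.14. For NTN1 the call ended without DMSO D1 1 and 2, DMSO D2 1, TCDD D1 2 or TCDD D2 2 (adjusted p 0.0543 to 0.112). S1PR1, a sphingosine phosphate receptor, rose from 0.746 and 1.10 CPM to 5.53 and 5.58 CPM against 1.14 and 1.07 CPM to 3.11 and 2.68 CPM. For S1PR1 the call ended without DMSO D1 1 and 2, DMSO D2 1 and 2, TCDD D1 1 or TCDD D2 1 and 2 (adjusted p 0.0904 to 0.240). PDGFB, a growth factor for mesenchymal cells, fell from 17.0 and 18.2 CPM to 3.01 and 2.12 CPM after TCDD and from 15.2 and 16.2 CPM to 4.59 and 4.40 CPM with DMSO, a difference of -0.95 ± 0.17. For PDGFB the call ended without DMSO D2 1 and 2 or TCDD D2 2 (adjusted p 0.0567 to 0.103).

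Calls in opposite directions were made for 30 genes, and the test of the difference called 18 of them. Of the 18, those that rose after TCDD and fell with DMSO were SOX2, HTR1D, DPYSL3, JAG1 and SESN3. HTR1D, a serotonin receptor, went from 17.2 and 19.9 CPM to 24.7 and 21.7 CPM after TCDD and from 20.3 and 21.3 CPM to 13.3 and 12.1 CPM with DMSO, a difference of 1.03 ± 0.12 (adjusted p = 0.000239). Its rise after TCDD ended without TCDD D2 library 1 (adjusted p = 0.0591), while the call of the difference held in all 8 fits that each left out a library. Those that fell after TCDD and rose with DMSO were LRAT, TIPARP, CYP1B1, GAL, NTS, LHX1, MEIS3, QPCT, TUNAR, ZNF578, CFAP58-AS1, LINC01355 and the mitochondrial ribosomal RNA RNR2. MEIS3, a homeobox cofactor of HOX proteins, went from 54.5 and 46.6 CPM to 41.7 and 39.9 CPM after TCDD and from 48.3 and 46.5 CPM to 59.6 and 56.8 CPM with DMSO, a difference of -0.60 ± 0.09 (adjusted p = 0.00256), and the call held in all 8 fits that each left out a library. The difference held in all 8 fits for SOX2, HTR1D, SESN3, LRAT, TIPARP, CYP1B1, GAL and MEIS3, and it ended in 2 to 8 of them for the other 10. RNR2 was at 6375 and 6786 CPM and 6111 and 4691 CPM after TCDD, with its D2 libraries apart, and its fall ended without TCDD D1 library 2 (adjusted p = 0.122) or TCDD D2 library 2 (0.402). The TCDD call itself also ended without 1 or more TCDD libraries for JAG1, SESN3, NTS, LHX1, QPCT, TUNAR and LINC01355 (adjusted p 0.0551 to 0.541). Without composition scaling the TCDD call was lost for DPYSL3 (adjusted p = 0.0629), JAG1 (0.161) and SESN3 (0.60), and SESN3 also lost it with the TCDD libraries alone (0.0674) and under DESeq2 (0.0689). Under DESeq2 it was lost as well for LHX1 (0.185), LINC01355 (0.0995) and RNR2 (0.232). The DMSO call ended without 1 or more DMSO libraries for JAG1, QPCT, ZNF578, CFAP58-AS1 and RNR2 (adjusted p 0.0562 to 0.336).

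**Figure D5:**
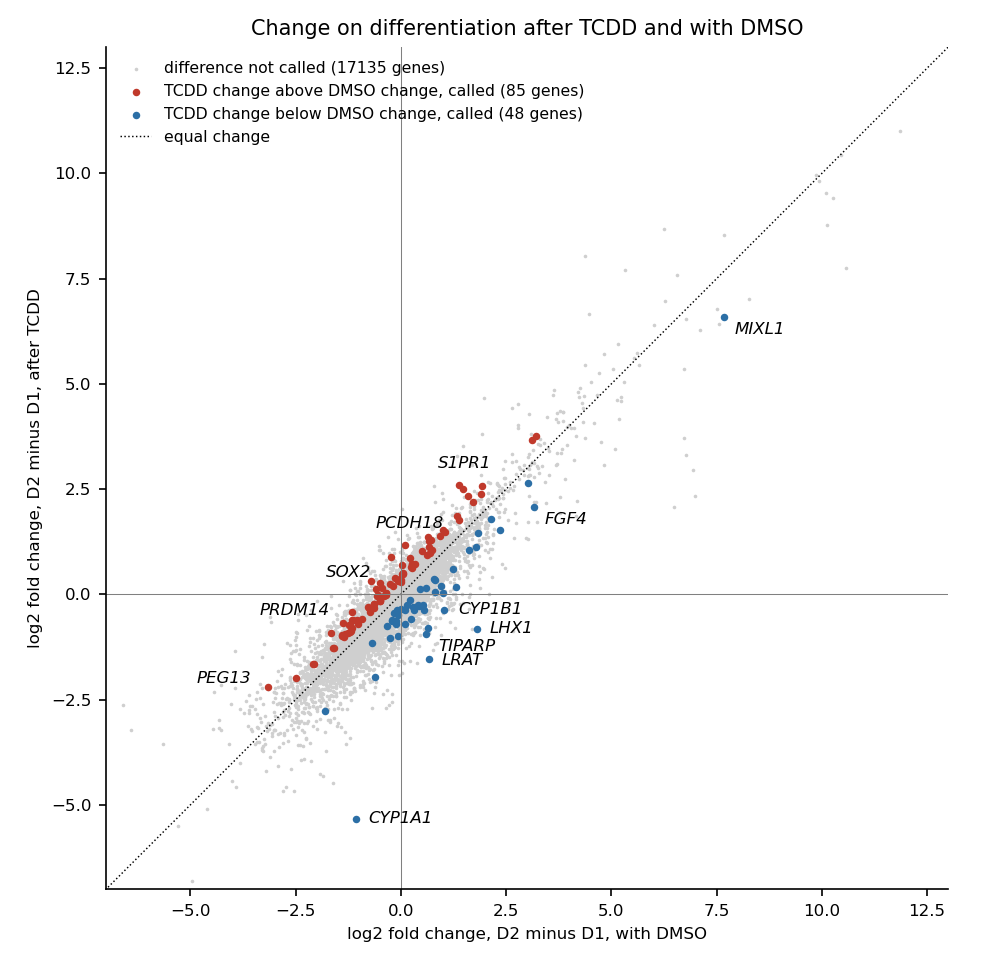
Each of the 17268 tested genes by its log2 fold change of D2 minus D1 with DMSO (horizontal) and after TCDD (vertical), each from 4 libraries, with the dotted line at equal change and the 133 genes whose changes differed by the test in colour, 85 above the line in red and 48 below it in blue. The cloud follows the line, CYP1A1 (-5.34 after TCDD, -1.07 with DMSO) lies farthest below it among the coloured genes, and MIXL1 is the coloured gene at the largest rise.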

How the data were processed

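RNA sequencing counts of 8 MEL1 libraries were used, 2 in each of 4 groups taken from the sample titles. The authors deposited whole-number read counts for each gene symbol, unnormalised as far as the values show. Per the submitters' processing notes, cutadapt 1.9.1, STAR and featureCounts 1.5.1 were used with the hg19 build. No source used here gives the STAR version, annotation, strand setting or handling of shared reads.

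Replicate libraries differed by more than sampling noise (chi-square per gene 3.21 to 6.59). Each counted as a sample, although this spread does not show that they came from separate cultures. RNR1 and RNR2, the mitochondrial ribosomal RNAs, took 0.484% to 0.948% of a library. With edgeR 4.0.16 in R 4.3.3, low genes were dropped by filterByExpr and TMM factors (0.958 to 1.04) were applied. A single quasi-likelihood model of all 8 libraries had 1 coefficient per group, and its common biological coefficient of variation was 3.86%. The F tests are two-sided, and p-values were adjusted over 17268 genes (Benjamini-Hochberg). The contrasts were D2 minus D1 after TCDD, the same with DMSO, and the difference of the 2 changes. SEs come from the F statistic and can be too small for a nearly silent group. Folds against a group without a count set that group to 3 counts in all, and ratios of summed counts, used where a group held few counts, have exact 95% intervals where one is given. These intervals cover counting error only, and a fold against the 3 counts is not a lower limit. The scripts were tested on simulated data. Alternatives were DESeq2 1.42.0, other scalings and filters, a replicate block, the TCDD libraries alone, and leaving out each library.

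The rule named the 15 largest rises and 15 largest falls after TCDD among called genes that averaged 1 CPM or more and whose libraries did not overlap, the 10 largest differences in each direction, 39 fixed genes, and up to 5 members of each of 37 lists plus those called for the difference. Further genes were chosen after their values were seen: GSC, MESP2, SNAI1, CXCR4, TCF7, TCF7L1, TCF7L2, WNT3A, WNT4, FOXH1, TDGF1, SMAD7, CCND1, KLF4, DPPA2, UTF1, ID3, EPCAM, FGF2, CDK1, PDGFRA, SIX6, HK1, HK2, SLC2A1, SLC16A3, CYP1A2, AADACL3, CHRND, QPCT, MEIS3, TUNAR, DPYSL3, SESN3, ZNF578, RNR2, CFAP58-AS1 and LINC01355. The comparison, members and lists were chosen with earlier results of these data known. Promoter sequences are from RefSeq. Some genes the rule named are not reported here.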

Additional observations from a re-analysis of the deposited data

Results flagged for a closer look

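The 53 named genes below stood out because the change from D1 to D2 after TCDD differed from the change with DMSO by the test of the difference itself, with an adjusted p below 0.05 in edgeR. Values are the TCDD change minus the DMSO change on the log2 scale, and a second clause gives the libraries, by group, day and number, whose removal ended the call. The call held in all 8 fits that each left out a library for 12 of them. The other 41 lost it in 1 or more of those fits.

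Downward differences, where the TCDD change lay below the DMSO change, are given in order of size. CYP1A1, the P450 readout of AHR activity, had a difference of -4.27, and the call ended without DMSO D2 1 (adjusted p 0.0858). The difference for LHX1, a LIM homeobox factor, was -2.64, and the call ended without DMSO D1 1, DMSO D2 1 and 2, TCDD D1 2 or TCDD D2 2 (adjusted p 0.0666 to 0.167). LRAT, which stores retinol as an ester, had a difference of -2.20, and the call held in all 8 fits that each left out a library. The difference for TIPARP, an AHR-induced ADP-ribosylase, was -1.55, and the call held in all 8 fits that each left out a library. CFAP58-AS1, an antisense RNA, had a difference of -1.44, and the call ended without DMSO D1 1 and 2, DMSO D2 1 and 2, TCDD D1 1 and 2 or TCDD D2 1 and 2 (adjusted p 0.0577 to 0.199). The difference for CYP1B1, a P450 of the AHR pathway, was -1.41, and the call held in all 8 fits that each left out a library. DNAH5, a dynein heavy chain of motile cilia, had a difference of -1.35, and the call ended without DMSO D1 2, DMSO D2 1 and 2 or TCDD D2 2 (adjusted p 0.0610 to 0.102). The difference for GMPR, a reductase of guanine nucleotides, was -1.14, and the call ended without DMSO D1 2, DMSO D2 1 and 2, TCDD D1 1 or TCDD D2 1 and 2 (adjusted p 0.0571 to 0.159). MIXL1, a mesendoderm homeobox factor, had a difference of -1.10, and the call ended without DMSO D1 1 and 2, DMSO D2 1 or TCDD D1 2 (adjusted p 0.0628 to 0.224).

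Smaller downward differences followed. FGF4, an FGF ligand, had a difference of -1.09, and the call ended without DMSO D1 1 and 2, DMSO D2 1 and 2, TCDD D1 1 and 2 or TCDD D2 1 and 2 (adjusted p 0.0628 to 0.214). The difference for CYP26A1, which breaks down retinoic acid, was -0.97, and the call held in all 8 fits that each left out a library. PDGFB, a growth factor, had a difference of -0.95, and the call ended without DMSO D2 1 and 2 or TCDD D2 2 (adjusted p 0.0567 to 0.103). The difference for ABCG2, an efflux transporter, was -0.94, and the call held in all 8 fits that each left out a library. LINC01355, a long non-coding RNA, had a difference of -0.93, and the call ended without DMSO D1 1 and 2, DMSO D2 1 and 2, TCDD D1 2 or TCDD D2 1 and 2 (adjusted p 0.0567 to 0.170). The difference for GAL, the neuropeptide galanin, was -0.83, and the call held in all 8 fits that each left out a library. GDF3, a ligand of the TGF-beta family, had a difference of -0.82, and the call ended without DMSO D1 2, DMSO D2 1 or TCDD D2 1 (adjusted p 0.0512 to 0.0757). The difference for RNR2, a mitochondrial ribosomal RNA, was -0.73, and the call ended without DMSO D1 1 and 2, DMSO D2 2, TCDD D1 2 or TCDD D2 2 (adjusted p 0.0623 to 0.192). QPCT, which forms pyroglutamate on peptides, had a difference of -0.70, and the call ended without DMSO D1 2, DMSO D2 1 and 2, TCDD D1 2 or TCDD D2 2 (adjusted p 0.0607 to 0.167). The difference for NTS, the neuropeptide neurotensin, was -0.66, and the call ended without DMSO D2 1 or TCDD D2 2 (adjusted p 0.0858 to 0.0881).

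The smallest downward differences of named genes were these. MEIS3, a homeobox cofactor, had a difference of -0.60, and the call held in all 8 fits that each left out a library. The difference for ZNF578, a zinc finger gene, was -0.41, and the call ended without DMSO D1 2, DMSO D2 1 and 2 or TCDD D2 1 and 2 (adjusted p 0.0565 to 0.0998). FGF13, an intracellular FGF relative, had a difference of -0.38, and the call ended without DMSO D1 1, DMSO D2 1 and 2 or TCDD D2 1 and 2 (adjusted p 0.0543 to 0.121). The difference for PDK1, a kinase of pyruvate dehydrogenase, was -0.37, and the call ended without DMSO D1 2, DMSO D2 1 and 2, TCDD D1 1 or TCDD D2 1 and 2 (adjusted p 0.0612 to 0.184). BNIP3, a mitophagy receptor, had a difference of -0.36, and the call ended without DMSO D1 1, DMSO D2 1 and 2 or TCDD D2 2 (adjusted p 0.0858 to 0.160). The difference for TUNAR, a long non-coding RNA, was -0.36, and the call ended without DMSO D1 1, DMSO D2 1 and 2 or TCDD D2 2 (adjusted p 0.0580 to 0.115). P4HA1, a collagen hydroxylase, had a difference of -0.33, and the call ended without DMSO D1 1 and 2, DMSO D2 1 and 2 or TCDD D2 2 (adjusted p 0.0924 to 0.194). The difference for SPRED1, an inhibitor of ERK signalling, was -0.30, and the call ended without DMSO D1 1 and 2, DMSO D2 1 and 2, TCDD D1 2 or TCDD D2 1 and 2 (adjusted p 0.104 to 0.276).

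Upward differences, where the TCDD change lay above the DMSO change, are likewise given in order of size. S1PR1, a sphingosine phosphate receptor, had a difference of 1.22, and the call ended without DMSO D1 1 and 2, DMSO D2 1 and 2, TCDD D1 1 or TCDD D2 1 and 2 (adjusted p 0.0904 to 0.240). The difference for PCDH18, a protocadherin, was 1.08, and the call held in all 8 fits that each left out a library. HTR1D, a serotonin receptor, had a difference of 1.03, and the call held in all 8 fits that each left out a library. The difference for PROX1, a homeobox factor, was 1.01, and the call ended without DMSO D1 1 and 2, DMSO D2 1 and 2, TCDD D1 1 or TCDD D2 2 (adjusted p 0.0520 to 0.170). PEG13, an imprinted non-coding RNA, had a difference of 0.96, and the call ended without DMSO D1 1 and 2, DMSO D2 1 and 2 or TCDD D2 1 and 2 (adjusted p 0.0654 to 0.208). The difference for HES3, a HES family repressor, was 0.75, and the call ended without DMSO D2 1 (adjusted p 0.0858). SOX2, a pluripotency and neural factor, had a difference of 0.75, and the call held in all 8 fits that each left out a library. The difference for NTN1, the guidance cue netrin, was 0.74, and the call ended without DMSO D1 1 and 2, DMSO D2 1, TCDD D1 2 or TCDD D2 2 (adjusted p 0.0543 to 0.112). PWAR5, a non-coding RNA of the Prader-Willi region, had a difference of 0.73, and the call ended without DMSO D1 1, DMSO D2 1 and 2 or TCDD D2 2 (adjusted p 0.0567 to 0.0886).

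Further upward differences were smaller. ZNF483, a zinc finger gene, had a difference of 0.72, and the call ended without DMSO D1 1, DMSO D2 1 and 2, TCDD D1 2 or TCDD D2 1 and 2 (adjusted p 0.0914 to 0.282). The difference for PRDM14, a pluripotency repressor, was 0.69, and the call held in all 8 fits that each left out a library. SESN3, a sestrin, had a difference of 0.61, and the call held in all 8 fits that each left out a library. The difference for FZD7, a frizzled receptor, was 0.55, and the call ended without DMSO D2 1 (adjusted p 0.0587). DPYSL3, a protein of growing axons, had a difference of 0.51, and the call ended without DMSO D2 1 or TCDD D2 2 (adjusted p 0.0514 to 0.0858). The difference for ETS1, an ETS factor, was 0.45, and the call ended without DMSO D1 1, DMSO D2 1 and 2 or TCDD D2 2 (adjusted p 0.0587 to 0.0806). The difference for SFRP1, a secreted Wnt antagonist, was 0.40, and the call ended without DMSO D1 1 and 2, DMSO D2 2 or TCDD D2 1 (adjusted p 0.0517 to 0.192). FGFR2, an FGF receptor, had a difference of 0.38, and the call ended without DMSO D1 2, DMSO D2 2 or TCDD D2 1 (adjusted p 0.0589 to 0.119).

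The smallest upward differences of named genes were these. AXIN2, a Wnt feedback scaffold, had a difference of 0.38, and the call ended without DMSO D1 1, DMSO D2 1 or TCDD D2 2 (adjusted p 0.140 to 0.184). The difference for JAG1, a Notch ligand, was 0.38, and the call ended without DMSO D1 1 and 2, DMSO D2 1 and 2, TCDD D1 2 or TCDD D2 1 and 2 (adjusted p 0.0519 to 0.187). VIM, the filament vimentin, had a difference of 0.37, and the call ended without DMSO D1 1, DMSO D2 1 or TCDD D2 1 and 2 (adjusted p 0.0815 to 0.230). The difference for CD24, a surface glycoprotein, was 0.36, and the call ended without DMSO D2 1 and 2 or TCDD D2 1 (adjusted p 0.0593 to 0.0904). TERF1, a telomere-binding protein, had a difference of 0.34, and the call ended without DMSO D1 1 and 2, DMSO D2 1 and 2 or TCDD D2 1 and 2 (adjusted p 0.0520 to 0.210). The difference for COL1A1, a collagen I chain, was 0.34, and the call ended without DMSO D1 1 and 2, DMSO D2 2 or TCDD D2 1 and 2 (adjusted p 0.0800 to 0.233). BCL2L1, a survival factor of the BCL2 family, had a difference of 0.34, and the call ended without DMSO D1 1 and 2, DMSO D2 1 and 2 or TCDD D2 1 and 2 (adjusted p 0.0543 to 0.247). The difference for NES, the filament nestin, was 0.32, and the call ended without DMSO D1 1 and 2, DMSO D2 1 and 2 or TCDD D2 1 and 2 (adjusted p 0.0627 to 0.241). PODXL, a sialomucin, had a difference of 0.31, and the call ended without DMSO D1 2, DMSO D2 1 and 2 or TCDD D2 1 (adjusted p 0.0688 to 0.170).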

How the results depend on the processing

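For D2 against D1 after TCDD the number of called genes was 11267 and lay between 9734 (DESeq2) and 11688 (crossed replicate block) under the alternatives and between 9746 and 10511 when 1 TCDD library was left out, within 1.5 times in each case. Of the 306 named genes 292 were called in this comparison. Of these 273 kept the call in every alternative run, 17 lost it when a library was left out and 11 under another setting, and none reversed. The difference between the TCDD and DMSO changes was far less stable. Its 133 calls (85 upward, 48 downward) became 468 (274 and 194) with no filter beyond 1 count, with 13 and 26 of at least 2-fold. DESeq2 gave 139 calls, with 3 upward and 5 downward of at least 2-fold, against 5 and 10 in edgeR. Fits that left out a library gave 31 to 275 calls, 17 to 203 upward and 14 to 72 downward, with 1 to 8 upward and 3 to 12 downward of at least 2-fold, and an arm left with 1 library was assumed to vary like the other groups. Among 53 named genes called for the difference, 12 kept the call in every alternative. The cause of these moves was not tested. With the replicate block the pairing of library numbers gave 11234 calls after TCDD and 159 for the difference (99 and 60). Same-numbered libraries deviated together between treatments at D1 (r = 0.308) and D2 (r = 0.210), but not between the times with TCDD (r = -0.290) or DMSO (r = 0.0444). Since not every pair was above 0.1, the numbers are not taken to pair samples. With the block the difference lost its call for SPRED1 (adjusted p = 0.0560) and gained one for DUSP6 (0.00467) and SPRY4 (0.0402), among others. With the numbers crossed, an alternative added after seeing the data, the difference gave 378 calls (238 and 140, 9 upward of at least 2-fold) and D2 against D1 after TCDD 11688, and AHRR gained a call for the difference (adjusted p = 0.0460). Depth limits the genes silent at D1, whose folds rest on a set floor of 3 counts, and 2 libraries a group limit the rest.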
